A study of Mus musculus with 10 samples.

Results

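Skeletal muscle fibers adapt to stretch and load, and a small set of genes is known for its quick response to both. This set of 10 genes was chosen by name from families of such genes, with earlier results of these data known. It comprised Ankrd1, Ankrd2 and Ankrd23, which encode muscle ankyrin repeat proteins, the LIM domain genes Csrp3, Fhl1, Fhl2, Fhl3 and Nrap, and the Xin repeat genes Xirp1 and Xirp2. All 10 were found among the 54232 genes of the deposited table. The RNA came from gastrocnemius, a muscle of the calf, of 5 homozygous desmin knock-out mice (Des -/-) and 5 wild-type littermates (Des wt/wt) aged 3 months. The strain label was the same for both genotypes, with B6J as host, 129Sv as donor and Destm1Cba/Cscl as the allele, and Des was lost in the whole animal, not in muscle alone. The design text of the series gives the mice as biological replicates, whereas the methods mention pooling of the RNA, and each of the 10 columns was used as 1 mouse. The labels and methods name gastrocnemius alone, but elsewhere the study names gastrocnemius and plantaris, and how much plantaris a sample held is not given in the sources used here.

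The muscle ankyrin repeat proteins bind titin in the spring region of the sarcomere and also enter the nucleus, so they are regarded as messengers between stretch and transcription. Csrp3 encodes muscle LIM protein, which lies at the Z-disc and shuttles to the nucleus, and the Fhl genes encode proteins with repeated LIM domains that act as adaptors at the sarcomere, at adhesion sites and in transcription. Nrap, the nebulin-related anchoring protein, joins actin filaments to the membrane at the myotendinous junction, and the Xirp genes encode the actin-binding Xin proteins found there and at sites of fiber damage. Desmin itself wraps the Z-discs and links them to one another and to the membrane.

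The values are regularized log (rlog) values on a log2 scale, in which the authors had already scaled the libraries and shrunken uncertain values. A difference of 1 therefore corresponds to a 2-fold difference on that scale, and differences are smaller than those of the counts. Read depth is unknown, since no counts were used here. Des, the targeted gene, lay between 11.76 and 11.89 in the knock-out and between 16.1 and 17.74 in the wild-type libraries, which matched the genotype labels. The muscle markers Acta1, Ckm and Mb had a summed level between 20.81 and 20.97 in desmin knock-out and between 20.95 and 22.1 in wild-type mice (log2 scale). Wild-type mouse 3 stood apart, with a mean correlation of 0.982 to the other wild-type mice compared with 0.989 to 0.991 for the others, and the differences of the 10 genes without it are given beside their results.

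Loss of desmin went with a higher level of 4 of the 10 genes and a lower level of 0, at an adjusted p under 0.05 (limma, adjusted over all 14289 tested genes). These were Csrp3, Fhl1, Fhl2 and Ankrd2, and they rose between 1.94-fold and 2.8-fold on the rlog scale. Among all tested genes 7.7% were higher and 5.99% lower by the same rule, and 13.7% differed in either direction. At an unadjusted p under 0.05 there were 6 of the 10 genes, Nrap and Ankrd23 being added, compared with 27.6% of all tested genes. All 5 knock-out values lay above all 5 wild-type values for the same 4 genes, which held for 7.45% of all tested genes (14.4% in either direction). Their differences stayed past the threshold in every alternative tested, including the analysis without wild-type mouse 3. Over the 10 genes the median log2 difference was 0.47, compared with -0.003 over all tested genes.

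**Figure D1:**
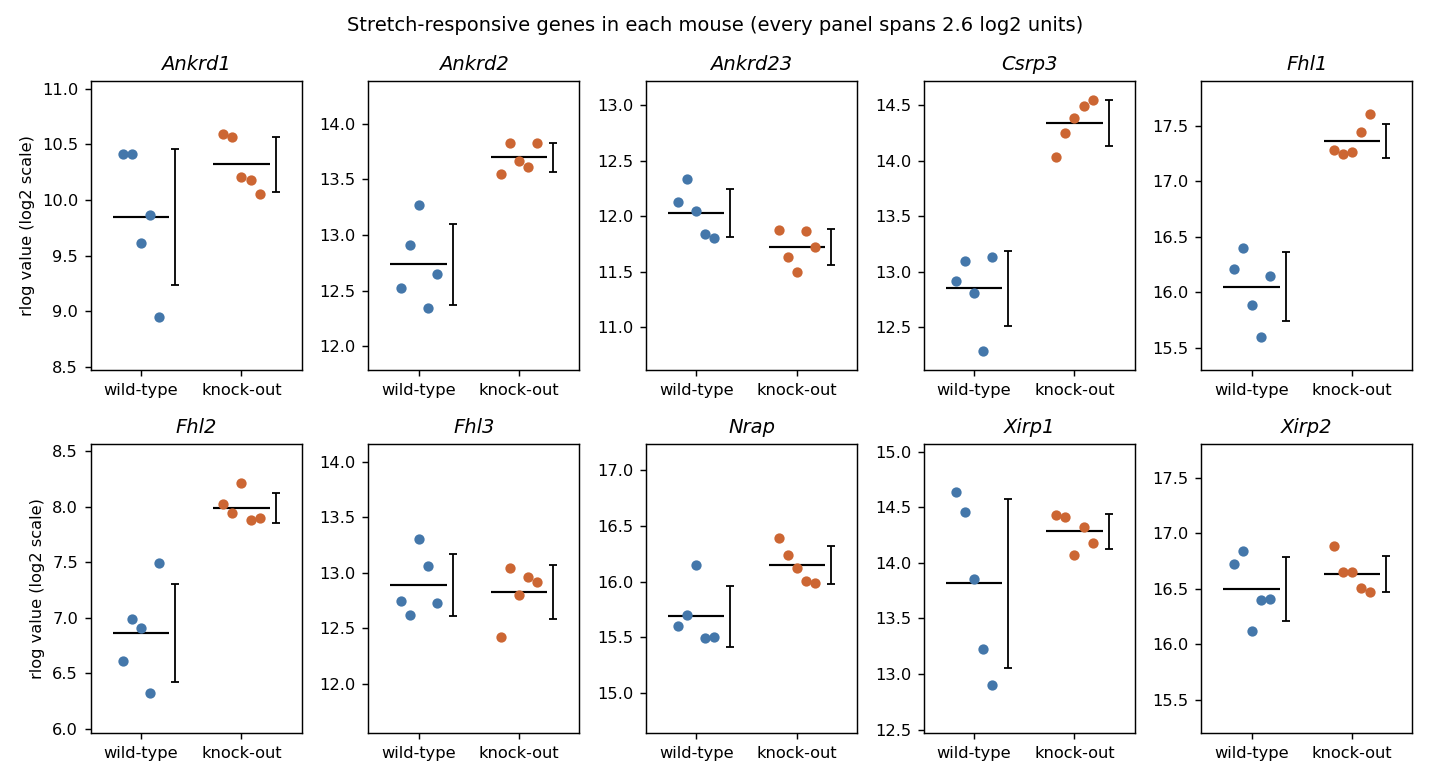
Deposited rlog value (y axis, log2 scale) of each of the 10 genes in each wild-type (blue) and desmin knock-out mouse (orange), with the mean as a line and the SD as an error bar (n = 5). The genotypes are separated for Ankrd2, Csrp3, Fhl1 and Fhl2 and overlap for the other 6 genes.

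Csrp3 had the largest difference of the 10 genes and ranked 82 of 14289 tested genes by rise. Csrp3 (ENSMUSG00000030470) lies on the reverse strand of chromosome 7 from 48830398 to 48848033 (GRCm38). In desmin knock-out mice 1 to 5 its rlog values were 14.03, 14.25, 14.38, 14.49 and 14.54, and in wild-type mice 1 to 5 they were 12.92, 13.1, 12.81, 12.29 and 13.13. The lowest knock-out value thus lay 0.9 above the highest wild-type value. The means were 14.34 ± 0.2 (SD, n = 5) and 12.85 ± 0.34 (SD, n = 5), which differed on the log2 scale by 1.49 (SE 0.16, limma, adjusted p = 3.01e-05), or 2.8-fold with a 95% interval from 2.22 to 3.54. Without wild-type mouse 3 the log2 difference was 1.48. By exact permutation (two-sided) the p was 0.00794, the smallest that 5 against 5 mice allow.

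The promoter of Csrp3 is shown because this gene rose most. The sequence is that of RefSeq for GRCm38.p6, which held promoters for 9 of the 10 genes, all but Xirp1. The 250 bases before each start site were searched on both strands for the MCAT core GGAATG bound by TEAD factors, the CArG box bound by SRF, the MEF2 box and the E-box CANNTG bound by myogenic factors. Over the 32851 windows of that length in the table, these matched 12.6%, 1.47%, 2.92% and 66.2%, and E-boxes may overlap one another. Matches are in capitals, and a match describes letters, not a bound site. Of 2 Csrp3 starts in the table, the one at 48848051 lies nearest to the start of the gene model. The window before it (chr7:48848052-48848301, reverse strand, written 5′ to 3′) held 4 E-boxes and no MCAT core, CArG box or MEF2 box, and so did the window before the start at 48843671.
Csrp3: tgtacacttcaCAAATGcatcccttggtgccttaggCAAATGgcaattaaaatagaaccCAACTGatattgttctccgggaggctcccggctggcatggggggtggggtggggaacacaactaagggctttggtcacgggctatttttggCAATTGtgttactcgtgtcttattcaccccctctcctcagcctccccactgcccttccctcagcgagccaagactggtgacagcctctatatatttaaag

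The Fhl genes did not respond alike. Fhl1, the most abundant of the 3 and an X-linked gene whose mutations cause reducing body myopathy, rose 2.49-fold. Fhl1 (ENSMUSG00000023092, X chromosome, 56731787 to 56793346, forward strand) had rlog values of 17.28, 17.24, 17.26, 17.44 and 17.6 in desmin knock-out mice 1 to 5 and of 16.21, 16.4, 15.89, 15.6 and 16.15 in wild-type mice 1 to 5. Its log2 difference was 1.31 (SE 0.16, limma, adjusted p = 9.88e-05), and 1.27 without wild-type mouse 3. Y-linked transcripts were present in all 10 mice, with a mean level of 4 such transcripts between 9.52 and 10.62, and with that mean as a covariate the log2 difference of Fhl1 was 1.17.

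Fhl2, which is best known from heart muscle, was the least abundant of the 10 genes and rose 2.19-fold. Fhl2 (ENSMUSG00000008136, chromosome 1, 43123074 to 43196984, reverse strand) had 8.02, 7.94, 8.21, 7.88 and 7.9 in desmin knock-out mice 1 to 5 and 6.61, 6.99, 6.91, 6.32 and 7.49 in wild-type mice 1 to 5. All 5 knock-out values exceeded the highest wild-type value, that of mouse 5. The log2 difference was 1.13 (SE 0.18, limma, adjusted p = 9.03e-04), and 1.14 without wild-type mouse 3. Fhl2 starts 32.2 Mb from Des on the same chromosome, as does Ankrd23 at 38.8 Mb, and the other 8 genes lie on other chromosomes. Fhl3 (ENSMUSG00000032643, chromosome 4, 124700701 to 124708611, forward strand) overlapped between the genotypes, with 12.42 to 13.04 in desmin knock-out and 12.62 to 13.3 in wild-type mice. Its log2 difference was -0.06 with a 95% interval from -0.38 to 0.26 (limma, adjusted p = 0.819), and 0.04 without wild-type mouse 3.

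Compared within each mouse, where the scaling of the library cancels, Fhl1 exceeded Fhl3 by 4.2 to 4.86 log2 units of rlog value in desmin knock-out and by 2.54 to 3.78 in wild-type mice. This excess was larger by 1.38 in desmin knock-out mice (exact permutation test, two-sided, p = 0.00794, adjusted p = 0.0139 over 7 pairs of related genes). Likewise the difference of Fhl2 to Fhl3 was larger by 1.19 (exact permutation test, adjusted p = 0.0139). The difference of Fhl1 to Fhl2 was 9.37 ± 0.26 (SD, n = 5) and 9.19 ± 0.37 (SD, n = 5), and no change of it was detected (exact permutation test, adjusted p = 0.397).

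CArG boxes, present in 1.47% of the 32851 windows, were matched in upstream windows of Fhl1 and Fhl2, and these stretches are shown because both genes rose. Of the 2 Fhl1 starts, the one at 56779683 had 1 match 102 bases upstream (chrX:56779571-56779600, forward strand), which lies inside the gene but in no GENCODE exon, and the one at 56786527 had none. Of the 2 Fhl2 starts in the table, the one at 43196761 had 1 match 96 bases upstream, within an exon of a longer gene model. That window also held 1 MEF2 box, 31 bases upstream. The start at 43163961, which lies 33023 bases inside the gene, had 1 CArG match 31 bases upstream. This match lies in no GENCODE exon and is shown with its whole window (chr1:43163962-43164211, reverse strand). The capitals mark the CArG box and, in the Fhl2 window, also the E-box. The Fhl3 window, before the start at 124700699, held none of the 4 motifs.
Fhl1: ccttggatcaCCTAAAATGGttaagaattt
Fhl2: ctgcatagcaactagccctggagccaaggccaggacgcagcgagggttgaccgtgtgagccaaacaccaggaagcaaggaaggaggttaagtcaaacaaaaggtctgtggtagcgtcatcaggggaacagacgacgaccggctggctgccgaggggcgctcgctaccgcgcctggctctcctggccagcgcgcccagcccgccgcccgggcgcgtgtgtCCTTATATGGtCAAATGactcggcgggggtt

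**Figure D2:**
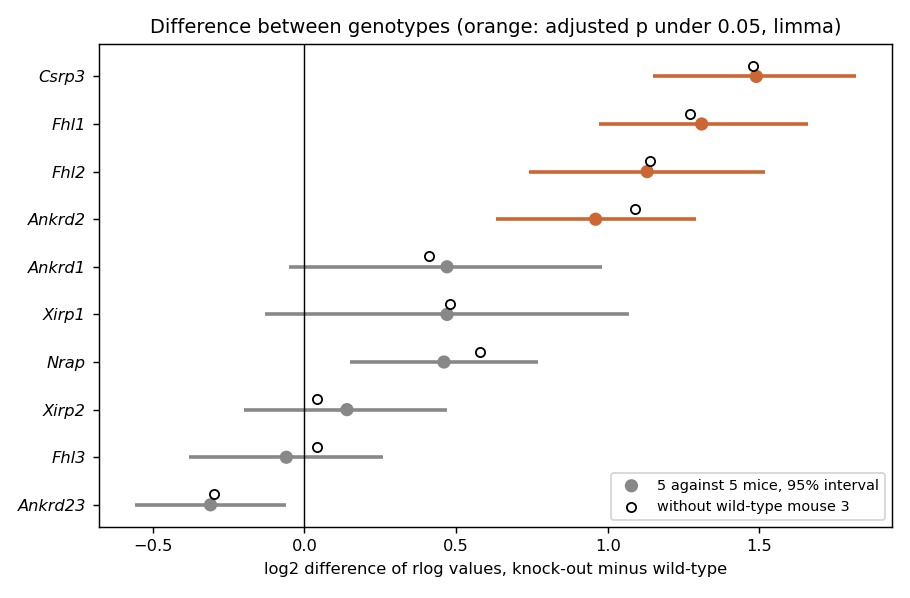
Log2 difference of rlog values, desmin knock-out minus wild-type (x axis), of the 10 genes with the 95% interval from limma (filled points and bars, 5 against 5 mice, orange at an adjusted p under 0.05) and without wild-type mouse 3 (open points). Csrp3, Fhl1, Fhl2 and Ankrd2 lie between 0.96 and 1.49, and the intervals of Ankrd1, Xirp1, Xirp2 and Fhl3 include 0.

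Among the muscle ankyrin repeat genes, Ankrd2 was higher in desmin knock-out muscle and the others did not pass the test. Ankrd2, which is known for its level in slow fibers and its rise after stretch or denervation, rose 1.94-fold. Ankrd2 (ENSMUSG00000025172, chromosome 19, 42036000 to 42045110, forward strand) had 13.55, 13.83, 13.67, 13.61 and 13.83 in desmin knock-out mice 1 to 5 and 12.52, 12.91, 13.27, 12.34 and 12.65 in wild-type mice 1 to 5. Wild-type mouse 3 came closest to the knock-out values, and without it the log2 difference was 1.09 instead of 0.96 (SE 0.15, limma, adjusted p = 8.1e-04).

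Ankrd1, also called CARP and a usual target of YAP, had 10.59, 10.57, 10.21, 10.18 and 10.05 in desmin knock-out mice 1 to 5 and 10.41, 10.41, 9.61, 9.87 and 8.95 in wild-type mice 1 to 5. Wild-type mice 1 and 2 lay within the range of the knock-out mice and wild-type mouse 5 more than 1 log2 unit below it. The log2 difference of Ankrd1 (ENSMUSG00000024803, chromosome 19, 36111961 to 36120099, reverse strand) was 0.47 (SE 0.24, limma, adjusted p = 0.226), with a 95% interval from -0.05 to 0.98. With sample weights in limma it was 0.08, without wild-type mouse 5 it was 0.24 and without wild-type mouse 3 it was 0.41. Ankrd23 (ENSMUSG00000067653, chromosome 1, 36530188 to 36536883, reverse strand) was one of 2 genes with a lower mean in desmin knock-out mice, 11.72 ± 0.16 (SD, n = 5) compared with 12.03 ± 0.22 (SD, n = 5) in wild-type mice. The log2 difference was -0.31 (SE 0.12, limma, adjusted p = 0.103). Without wild-type mouse 3 it was -0.3. With sample weights, under which 4220 of all tested genes passed instead of 1956, Ankrd23 passed as well (log2 difference -0.38, limma, adjusted p = 0.00621). It did not pass in any other alternative fit with limma. In GENCODE M21, 78.2% of the exon bases of Ankrd23 are shared with Gm42417, a gene model on the same strand that is listed at 0 in all mice, and how reads of the shared exons were assigned is not given in the sources used here.

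Within each mouse, Ankrd2 exceeded Ankrd23 by 1.66 to 2.19 log2 units of rlog value in desmin knock-out and by 0.4 to 1.22 in wild-type mice. This difference was larger by 1.27 in desmin knock-out mice (exact permutation test, adjusted p = 0.0139 over 7 pairs). Ankrd1 also moved relative to Ankrd23, from -2.18 ± 0.46 (SD, n = 5) in wild-type to -1.4 ± 0.27 (SD, n = 5) in desmin knock-out mice (exact permutation test, adjusted p = 0.0139), although the highest wild-type value of -1.71 and the lowest knock-out value of -1.7 almost met. Between Ankrd1 and Ankrd2 the difference changed by -0.49, which did not pass the test (exact permutation test, adjusted p = 0.267). Without wild-type mouse 3 the pairs of Ankrd2 and Ankrd1 with Ankrd23 changed by 1.39 and 0.71, and those of Fhl1 and Fhl2 with Fhl3 by 1.23 and 1.1, and all 4 still passed (exact permutation test, adjusted p = 0.0278 each).

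**Figure D3:**
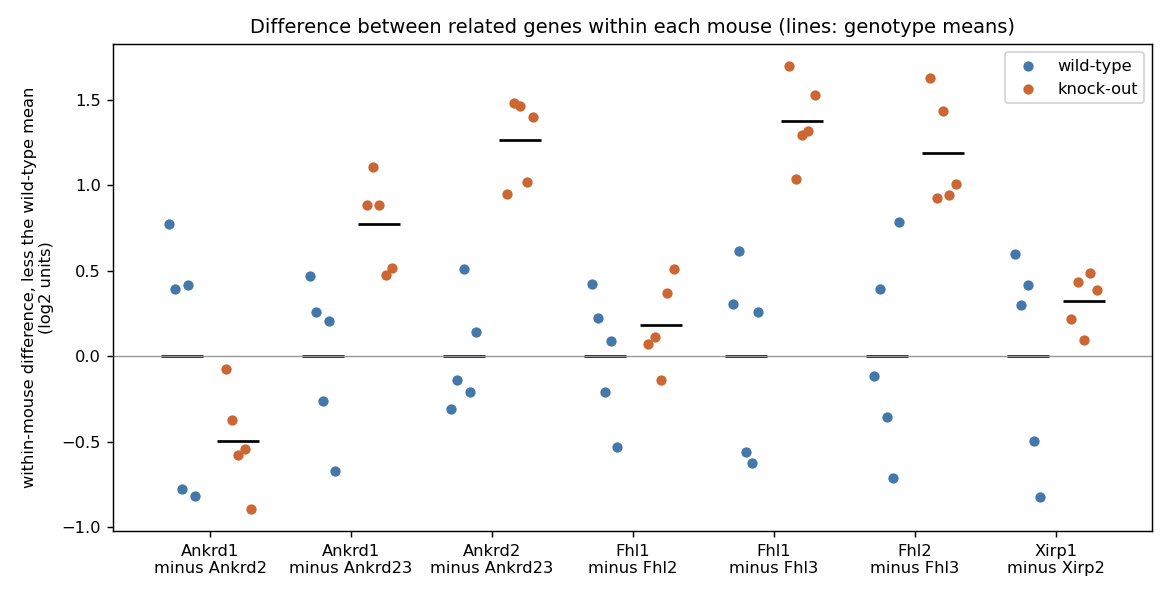
Difference between the rlog values of 2 related genes within each mouse, less the wild-type mean of that pair (y axis, log2 units), for 7 pairs, with wild-type mice in blue, desmin knock-out mice in orange and lines at the genotype means. The genotypes do not overlap for Ankrd1 minus Ankrd23, Ankrd2 minus Ankrd23, Fhl1 minus Fhl3 and Fhl2 minus Fhl3, and overlap for the other 3 pairs.

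The upstream windows of the ankyrin repeat genes differed in motifs. Ankrd1 is shown for its MCAT cores, since it is a usual YAP and TEAD target, and Ankrd2 because it rose. Ankrd1 held 2 MCAT cores, 210 and 123 bases before the RefSeq start at 36119844. Both lie within an exon of a GENCODE model that begins farther upstream, at 36120099, and 30 bases around each are given (chr19:36120037-36120066 and chr19:36119950-36119979, reverse strand). Of 2 Ankrd23 starts, the one at 36535739 had 1 MCAT core 120 bases upstream and the one at 36536556 none. The Ankrd2 window had no MCAT core, CArG box or MEF2 box but 3 E-boxes, and its 223 bases up to the start of the gene model are given (chr19:42035777-42035999, forward strand).
Ankrd1 distal: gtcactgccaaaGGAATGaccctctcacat
Ankrd1 proximal: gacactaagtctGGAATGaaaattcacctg
Ankrd2: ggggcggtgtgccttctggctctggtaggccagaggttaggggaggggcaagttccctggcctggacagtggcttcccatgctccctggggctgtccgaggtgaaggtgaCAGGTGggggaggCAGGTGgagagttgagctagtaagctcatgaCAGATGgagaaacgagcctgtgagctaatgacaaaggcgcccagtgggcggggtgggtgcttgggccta

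The actin-binding genes Nrap, Xirp1 and Xirp2 did not pass the test. Nrap (ENSMUSG00000049134, chromosome 19, 56320035 to 56390037, reverse strand) came closest, with 16.39, 16.24, 16.12, 16.01 and 15.99 in desmin knock-out mice 1 to 5 and 15.6, 15.7, 16.15, 15.49 and 15.5 in wild-type mice 1 to 5. Wild-type mouse 3 alone overlapped with the knock-out mice. The log2 difference was 0.46 (SE 0.15, limma, adjusted p = 0.0529), and without that mouse it was 0.58 (limma, adjusted p = 0.00139). Nrap also passed with quantile normalization (adjusted p = 0.0018) and not with median centring of the samples (adjusted p = 0.108, both limma).

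Xirp1 (ENSMUSG00000079243, chromosome 9, 120013755 to 120023598, reverse strand) had 14.43, 14.41, 14.07, 14.32 and 14.18 in desmin knock-out mice 1 to 5 and 14.64, 14.46, 13.85, 13.22 and 12.9 in wild-type mice 1 to 5. Its wild-type values enclosed all knock-out values. The log2 difference was 0.47 (SE 0.28, limma, adjusted p = 0.3), and 0.07 with sample weights. Without wild-type mouse 5 it was 0.24, without wild-type mouse 1 it was 0.67, and without wild-type mouse 3 it was 0.48. Xirp2 (ENSMUSG00000027022, chromosome 2, 67446002 to 67526614, forward strand), the gene of the larger Xin protein, ranged from 16.47 to 16.89 in desmin knock-out and from 16.12 to 16.84 in wild-type mice. Its log2 difference of 0.14 had a 95% interval from -0.2 to 0.47 (limma, adjusted p = 0.605). Sample weights gave -0.14, and the analysis without wild-type mouse 3 gave 0.04. No change of the difference between Xirp1 and Xirp2 was detected (0.33, exact permutation test, adjusted p = 0.397).

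Values varied more between wild-type than between desmin knock-out mice for all 10 genes, as they did for 82.9% of tested genes. Xirp1 and Ankrd1 stood out in the wild-type mice. The SD of Xirp1 was 0.75 in wild-type and 0.16 in desmin knock-out mice, a ratio of 4.85 compared with a median of 1.9 over all tested genes, and 0.609% of tested genes had a wild-type SD at least as large. For Ankrd1 the SDs were 0.61 and 0.24, and 2.35% of tested genes reached its wild-type SD. Both genes were highest in wild-type mice 1 and 2 and lowest in wild-type mouse 5. Egr1, an immediate-early gene, also varied among wild-type mice, with 10.15 in mouse 1, 9.05 in mouse 2 and 7.21 to 7.49 in the others. In desmin knock-out mice Egr1 ranged from 9.83 to 10.53.

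Levels were compared between genes after division by the length of their exons. On this scale (log2 of rlog-scale abundance per kb), wild-type muscle held most Fhl1 with 14.16 ± 0.31 (SD, n = 5), followed by Nrap with 13.23, Xirp2 with 12.91, Ankrd2 with 12.55, Fhl3 with 12.14, Csrp3 with 11.43, Xirp1 with 11.27, Ankrd23 with 10.6, Ankrd1 with 8.32 and Fhl2 with 5.94 ± 0.44 (SD, n = 5). Ranges of neighbours in this order overlapped from Nrap to Fhl3 and from Csrp3 to Ankrd23, and differences between neighbours were not tested. Some genes farther apart in the order overlapped too, such as Nrap (13.03 to 13.69) and Ankrd2 (12.16 to 13.08) in wild-type mice. Nrap and Fhl3 (11.87 to 12.55) did not. The place of Ankrd23 is uncertain, since 78.2% of its exon bases are shared with Gm42417 and the assignment of those reads is unknown. In desmin knock-out muscle Fhl1 was still highest with 15.47 ± 0.15 (SD, n = 5) and Fhl2 lowest with 7.07 ± 0.14 (SD, n = 5). Csrp3, with 12.92 ± 0.2 (SD, n = 5), had passed Fhl3, with 12.08 ± 0.25 (SD, n = 5), in desmin knock-out mice, where their ranges of 12.62 to 13.12 and 11.67 to 12.29 did not overlap. Ankrd2, with 13.51 ± 0.13 (SD, n = 5), lay near Nrap with 13.69 ± 0.17 (SD, n = 5).

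The genes whose values over the 10 mice were most like those of Csrp3 were Arpp21 and Il13ra1, with a root mean square difference of 0.154 and 0.169 between gene-centred rlog values. For Fhl1 they were Slc25a24, Spink11 and Arpp21 (0.138, 0.179 and 0.182). For Fhl2 they were Casq2, Srrm4 and Mamdc2 (0.152, 0.175 and 0.178). The median over all tested genes was 0.808 for Csrp3, 0.72 for Fhl1 and 0.666 for Fhl2. The genotype difference is part of this measure.

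Most relatives from the LIM and nebulin families did not pass the test. Of 21 such genes 20 were tested, 3 were higher and 1 was lower, and their median log2 difference was 0.02. Ablim1, an actin-binding LIM protein, rose by 1.79 (SE 0.11, limma, adjusted p = 3.16e-07), from 11.08 to 11.45 in wild-type to 12.89 to 13.32 in desmin knock-out mice. Lmcd1, a LIM protein that restrains GATA factors, rose by 1.1 (SE 0.1, limma, adjusted p = 1.15e-05). Pdlim7 fell by 0.54 (SE 0.14, limma, adjusted p = 0.0209), a call that was lost in 3 of 18 alternatives, and by 0.35 with sample weights. The muscle LIM gene relatives Csrp1 and Csrp2 had log2 differences of 0.01 and 0.04.

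Of 21 genes for titin, Z-disc and thin filament proteins that the 10 gene products bind or lie beside, 4 were higher and 2 lower, with a median log2 difference of 0.16. Actn2, the main sarcomeric α-actinin of slow and heart muscle, was higher by 0.83 (SE 0.18, limma, adjusted p = 0.00638), as was Klhl41, a binding partner of Nrap, by 0.51 (SE 0.11, limma, adjusted p = 0.00579). Capn3, a titin-bound protease, fell by 0.57 (SE 0.11, limma, adjusted p = 0.00278). Ttn itself had a log2 difference of -0.13 (limma, adjusted p = 0.681).

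Genes of the YAP and SRF pathways, which respond to stretch as well, went both ways. Of 20 such genes 19 were tested, 2 were higher and 3 lower, with a median log2 difference of 0.1. Those lower were Srf, Mrtfa (-0.59, SE 0.19, limma, adjusted p = 0.0489) and Actc1 (-0.83, SE 0.24, limma, adjusted p = 0.0352). Ccn2, the connective tissue growth factor gene and a YAP target, was higher by 1.01 (SE 0.21, limma, adjusted p = 0.00497), and its 5 knock-out values of 10.48 to 11.2 lay above the wild-type values of 9.22 to 10.34. Egr1 was higher by 1.88 (SE 0.46, limma, adjusted p = 0.0156) and Srf lower, with a difference of -0.56 (SE 0.15, limma, adjusted p = 0.022). With sample weights Egr1 was higher by 0.98. Without a limit on expression Ccn2 alone of this list passed (limma, adjusted p = 0.0232), and the calls of Egr1, Srf, Mrtfa and Actc1 were lost. The call of Srf was also lost without knock-out mouse 1 (limma, adjusted p = 0.0634) or 5 (limma, adjusted p = 0.0514).

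Of 10 slow fiber genes 3 were higher and 1 lower, with a median log2 difference of 0.26. The slow troponin T gene Tnnt1 rose by 1.7 (SE 0.2), Tnni1, the slow troponin I, by 0.91 (SE 0.21) and Casq2, a calsequestrin, by 1.01 (SE 0.19), with adjusted p values of 8.53e-05, 0.0103 and 0.00279 (limma). Myh7, the slow myosin heavy chain, had a log2 difference of -0.05 and Myl3, a slow myosin light chain, was lower with -1. Of 11 fast fiber genes 0 were higher and 3 lower (median -0.41). These were Mybpc2 (-1.05, SE 0.19), Actn3 (-0.97, SE 0.25) and Myh4 (-0.71, SE 0.21), of which Myh4 lost its call in 12 of 18 alternatives (-0.36 with quantile normalization) and Actn3 in 3. Of 10 genes of regenerating fibers 7 were higher and 1, Myod1, was lower (-0.47, SE 0.12, limma, adjusted p = 0.0219), with a median of 1.29. Ncam1 (0.57, limma, adjusted p = 0.0731) and Pax7 (0.01, limma, adjusted p = 0.956) did not pass. Among those higher were Myh3, the embryonic myosin gene (2.25, SE 0.19), Mymk, the fusion gene myomaker (1.93, SE 0.2), and Cdkn1a, the p21 gene (1.48, SE 0.11). These fiber type and regeneration genes moved beside the rise of Csrp3, Fhl1, Fhl2 and Ankrd2, and their part in it, like that of any plantaris tissue, was not tested.

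**Figure D4:**
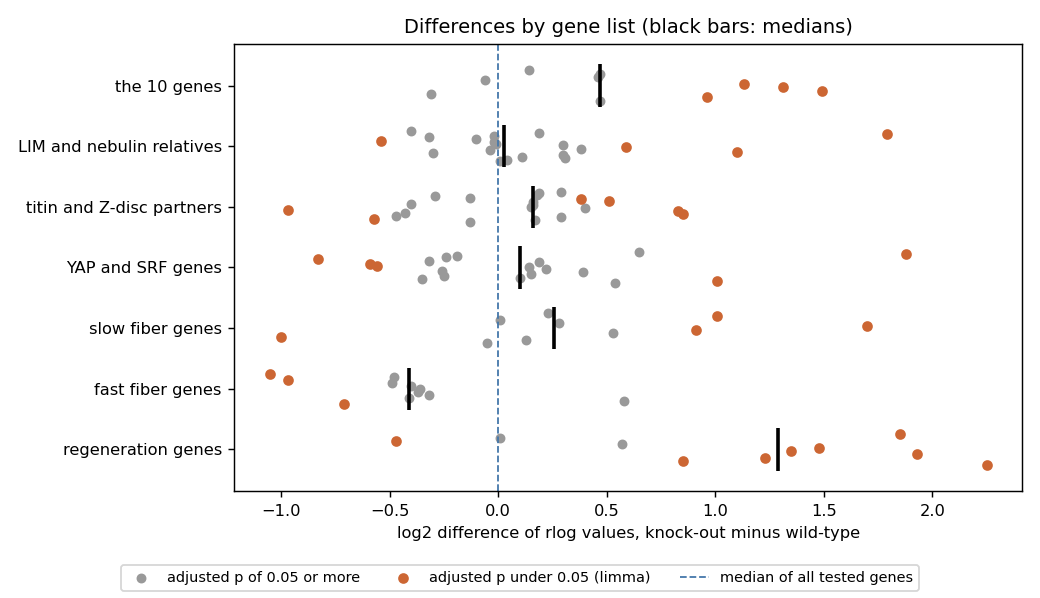
Log2 difference of rlog values, desmin knock-out minus wild-type (x axis), of the tested genes of each list, with genes at an adjusted p under 0.05 (limma) in orange, the others in grey, list medians as black bars and the median of all tested genes as a dashed line. The median was 0.47 for the 10 genes, between 0.02 and 0.26 for the LIM and nebulin relatives, the titin and Z-disc partners, the YAP and SRF genes and the slow fiber genes, -0.41 for the fast fiber genes and 1.29 for the regeneration genes.

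Markers of other cell types differed as well. In bulk muscle, fewer cells of a type cannot be told apart from less RNA per cell. Among 6 tendon and myotendinous junction genes, 4 rose with the loss of desmin, Tnmd by 1.51 (SE 0.24), Thbs4 by 0.96 (SE 0.16), Scx by 0.77 (SE 0.16) and Col22a1 by 0.43 (SE 0.13). Their summed level lay between 13.09 and 13.6 in desmin knock-out and between 12.13 and 13.01 in wild-type mice. Of 6 fibroblast genes 4 were higher (summed level 13.82 to 14.42 and 13.36 to 14.29), and of 5 endothelial genes 3 were lower (11.47 to 11.97 and 11.98 to 12.32). Of 4 erythroid genes 2 were lower (11.25 to 11.8 and 11.84 to 13.17). No gene of the macrophage, smooth muscle and pericyte, Schwann cell and adipocyte lists passed. Of 5 cardiac genes 3 were tested and 2 were higher, Tnnt2 by 1.32 (SE 0.17) and Tnni3 by 0.52 (SE 0.13), while the defining heart markers Nppa and Nppb had means between -0.4 and 0.46. The part of these cell types in the differences of the 10 genes was not tested.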

How the data were processed

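RNA-seq had been done on the gastrocnemius (in parts of the study described as gastrocnemius and plantaris) of 5 Des -/- and 5 Des wt/wt mice. Per the submitters' processing notes, reads were trimmed with cutadapt 2.5, aligned with STAR 2.5.4a to GRCm38 and counted with featureCounts (Subread 1.6.1), and the methods name DESeq2 for the authors' tests. The authors deposited rlog values, a log2 transformation that also corrects for library size and shrinks low values, so depth and counting error are unknown. The settings of the transformation and of strand counting are not given in the sources used here.

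Symbols, positions and exon lengths came from GENCODE M21 (GRCm38), where 54079 of 54232 genes had a symbol. A mean rlog value of log2(10) or more was required, and tests used limma 3.58.1 in R 4.3.3 (variance prior following the mean, two-sided, Benjamini-Hochberg over the 14289 genes), no covariate being used. Since the table held log2 values and no counts, limma was used in place of the count test of the study. Differences between related genes within a mouse were tested with exact two-sided permutation tests (scipy 1.17.1) and adjusted over 7 pairs. Lists were described by counts and medians. The 10 genes, the lists and the tests were chosen with earlier results of these data known. Named were Des, the 10 genes, the 3 genes with the smallest adjusted p of each of 6 lists, and the 3 genes most like each of the 3 genes that changed most by the root mean square difference, of which 1 is not reported here; Csrp1, Csrp2, Ttn, Myh7, Myl3 and the marker genes were named besides. Groups came from the genotype labels. Replicate numbers were not used to pair the mice in the main tests. Alternatives were other limits on expression, quantile normalization, centring on the median, sample weights (arrayWeights), 1 prior variance for all genes, a replicate block, a covariate of 4 Y-linked transcripts, each mouse left out in turn and an adjusted p under 0.01. For each of the 10 genes, an exact two-sided permutation test of the genotype means, without adjustment, was a further alternative.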

Additional observations from a re-analysis of the deposited data

Results flagged for a closer look

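Values of 36 genes were examined in both genotypes, which made 72 sets of 5 mice, and 5 of these sets had a mouse far from the other 4 by Dixon's test, where chance gives about 3.6. None of them belonged to the 10 stretch-responsive genes. In wild-type mouse 3 this concerned Des (17.74), Tnnt1 (12.43) and Actn3 (19.34). Desmin knock-out mouse 5 was set apart for Arpp21 (9.64) and desmin knock-out mouse 3 for Srrm4 (5.54).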

How the results depend on the processing

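Between 4 and 6 of the 10 genes passed in every alternative, and between 4 and 5 with 1 mouse left out. Over all single genes and pairs followed, 698 of 739 alternative values kept their direction and their side of the threshold, 26 fell below it, 9 rose past it and 6 changed sign. Those that rose past it include the exact permutation tests of Nrap (p = 0.0317) and Ankrd23 (p = 0.0476), which are single-gene tests without adjustment. The sign changes were those of Fhl3 with quantile normalization (0.01), sample weights (0.17), the Y-linked covariate (0.07), without desmin knock-out mouse 1 (0.04) and without wild-type mouse 3 (0.04), and of Xirp2 with sample weights (-0.14), and none of these values passed the test. With 1 mouse left out, Fhl3 lay between -0.13 and 0.04. Their cause was not tested.

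The number of changed genes was 1956 (1100 higher, 856 lower). It was 4220 (2093 and 2127) with sample weights, 994 (623 and 371) at an adjusted p under 0.01, and between 1400 and 2496 with 1 mouse left out (833 to 1335 higher, 560 to 1161 lower), the highest without wild-type mouse 3. Without a limit on expression, 2 genes of the LIM and nebulin relatives, 3 of the partners, 1 of the YAP and SRF genes and 1 of the fast fiber genes passed. With sample weights these were 8, 13, 9 and 5. At an adjusted p under 0.01 they were 2, 3, 1 and 1, with 2 slow fiber genes. Quantile normalization gave 11 partners, the Y-linked covariate 7 relatives and 3 YAP and SRF genes, and the limit of log2(50), under which fewer genes are tested, 5 regeneration genes. With 1 mouse left out, the counts ranged from 2 to 7 for the relatives, 4 to 11 for the partners, 2 to 6 for the YAP and SRF genes, 4 to 5 for the slow fiber, 1 to 4 for the fast fiber and 7 to 9 for the regeneration genes. The highest counts of relatives (7) and partners (11) came without wild-type mouse 3, and the lowest of the relatives (2) without desmin knock-out mouse 1.

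Replicate numbers shared by the genotypes showed no sign of pairing the mice (correlations of same-numbered deviations from -0.219 to 0.0673, in 0 of 5 cases the highest). This check cannot exclude a pairing, since paired mice need not have correlated deviations. With the number as a block, 1579 genes and 4 of the 10 genes passed. Of the 7 pairs of related genes 4 passed, also with each mouse left out. Within a replicate block 0 of them did, where the permutation test allows no p below 0.0625.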
